A study of Mus musculus with 6 samples.

Results

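Peaks at promoters of noncoding RNA genes, away from every coding promoter, were taken from the ATAC-seq peak list of untreated V6.5 mouse embryonic stem cells (mESCs). ATAC-seq marks open chromatin by the places where the Tn5 transposase can insert adapters into DNA. A peak belonged to the set when it lay on chromosomes 1 to 19, within 1 kb of the transcription start site (TSS) of a RefSeq gene that has noncoding (NR_) transcripts and no coding (NM_) transcript, and farther than 1 kb from every NM_ TSS. The rule gave 536 peaks, which were 1.33% of the 40228 peaks on these chromosomes and 1.31% of the 41014 peaks of the whole list. They are called noncoding promoter peaks below, and they were set beside the 5616 peaks within 1 kb of an NM_ TSS (coding promoter peaks) and the 34076 remaining peaks.

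The untreated condition had 2 replicates of V6.5 cells. By the sample labels they were grown on irradiated mouse embryonic fibroblasts with serum and LIF, a cytokine that keeps mESCs undifferentiated, whereas the methods of the study give a medium with LIF and the inhibitors CHIR99021 and PD0325901 and name no feeder cells. The treatment field of these samples reads untreated, although the protocol text shared by all samples of the series describes Doxycycline at 1 µg/ml for 24 hours for degron cells. Both replicates stand in 1 deposited peak list, so that a peak has 1 width and 1 score and no value per replicate, the read depth behind it is unknown, and no test between samples was possible. The ZBTB21 degron samples at 0 and 6 h, 2 each, were not analysed here. A peak does not tell how many cells were open or which cells they were. A peak lay within 1 kb of a TSS of 4 of 10 pluripotent stem cell marker genes, with a highest score of 861 at Pou5f1, 805 at Nanog, 892 at Zfp42 and 909 at Tbx3, and of 1 of 10 fibroblast marker genes, Thy1, with a score of 829. Over all NM_ genes the share was 28.7% (5753 of 20021), so these counts are a description and not a check of cell identity. The other 6 stem cell markers, Sox2, Klf4, Klf2, Esrrb, Tfcp2l1 and Dppa3, had no promoter peak. A missing promoter peak in this list is therefore not read as showing that a gene is silent. The fibroblast markers other than Thy1 had no promoter peak either, which does not bear on this reading.

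Noncoding genes differ in how they are transcribed. Long noncoding RNAs are made by RNA polymerase II from promoters much like those of coding genes. Most microRNAs and small nucleolar RNAs (snoRNAs, which guide the modification of ribosomal RNA) are cut out of longer host transcripts, so their annotated start is the end of a processed RNA and not a place where transcription begins. Small nuclear RNAs (snRNAs, most of them parts of the splicing machinery), 7SK, Y RNAs and vault RNAs have short promoters of their own, several of them used by RNA polymerase III.

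The central 300 bp of 5 peaks are printed to show how different the sequences under such peaks are. They are read from RefSeq GRCm38.p6, the assembly also called mm10, 5′ to 3′ along the direction of transcription. Capitals mark matches on either strand to the short motifs of the CCAAT box (CCAAT), SP and KLF factors (GGGCGG), the TATA box (TATAAA) and the POU octamer (ATGCAAAT). Mir22hg, the host of microRNA miR-22, had the highest score, Dancr hosts a snoRNA and opens on a CpG-rich promoter, Rn7sk encodes the 7SK RNA, Platr26 is a transcript associated with pluripotency, and the peak near Mir290a lies upstream of a microRNA cluster that is abundant in mESCs. The windows are chr11:75461338-75461637 (plus strand), chr5:74092850-74093149 (plus strand), chr9:78175506-78175805 (minus strand), chr2:71719284-71719583 (plus strand) and chr7:3217564-3217863 (plus strand).
Mir22hg: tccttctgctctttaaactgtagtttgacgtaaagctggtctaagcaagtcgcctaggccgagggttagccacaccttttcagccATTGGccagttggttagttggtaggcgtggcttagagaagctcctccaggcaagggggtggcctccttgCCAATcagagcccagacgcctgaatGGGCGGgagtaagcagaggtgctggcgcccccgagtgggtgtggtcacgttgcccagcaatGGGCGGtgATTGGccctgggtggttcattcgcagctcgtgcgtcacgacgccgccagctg
Dancr: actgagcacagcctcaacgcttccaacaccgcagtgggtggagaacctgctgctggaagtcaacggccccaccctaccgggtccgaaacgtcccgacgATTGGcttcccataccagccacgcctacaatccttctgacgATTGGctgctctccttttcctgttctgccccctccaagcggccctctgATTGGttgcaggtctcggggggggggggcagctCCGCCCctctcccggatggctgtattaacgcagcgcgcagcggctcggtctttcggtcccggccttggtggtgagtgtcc
Rn7sk: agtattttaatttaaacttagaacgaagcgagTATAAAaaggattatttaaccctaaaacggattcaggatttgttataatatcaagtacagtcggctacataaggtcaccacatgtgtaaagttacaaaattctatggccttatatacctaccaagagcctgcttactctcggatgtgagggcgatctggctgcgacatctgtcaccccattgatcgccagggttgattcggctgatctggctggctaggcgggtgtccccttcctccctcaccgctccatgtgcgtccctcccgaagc
Platr26: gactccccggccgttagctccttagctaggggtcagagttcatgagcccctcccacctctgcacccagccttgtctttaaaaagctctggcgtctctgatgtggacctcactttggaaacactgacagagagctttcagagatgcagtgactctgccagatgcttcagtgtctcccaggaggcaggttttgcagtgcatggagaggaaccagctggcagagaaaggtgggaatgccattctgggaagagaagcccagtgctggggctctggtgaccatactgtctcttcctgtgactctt
Mir290a: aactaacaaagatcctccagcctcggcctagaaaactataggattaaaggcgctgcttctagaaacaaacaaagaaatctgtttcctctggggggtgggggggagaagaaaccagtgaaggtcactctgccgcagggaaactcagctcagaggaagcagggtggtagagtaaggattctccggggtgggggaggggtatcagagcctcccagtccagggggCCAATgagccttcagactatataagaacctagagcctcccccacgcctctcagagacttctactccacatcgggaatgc

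The Mir22hg window ran from base -201 to base 99, with the TSS as base 1, and held 16 CpG dinucleotides, 3 CCAAT matches and 2 GGGCGG matches. The CCAAT matches began at -116, -47 and 48 and the GGGCGG matches at -22 and 40. The Dancr window held 21 CpG dinucleotides and 3 CCAAT matches, all on the opposite strand, beginning at -112, -71 and -23, with a GGGCGG match on the opposite strand beginning at 11. The Platr26 window also covered the TSS but held 3 CpG dinucleotides and no match to the 4 motifs. In the Rn7sk window the only match was TATAAA beginning at -140, and in the Mir290a window the only match was a CCAAT beginning 841 bp upstream of the annotated hairpin start. A match is a description of the letters and not evidence of a bound factor.

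By kind of gene, the nearest noncoding gene was a long noncoding RNA for 395 of the 536 peaks (73.7%, Wilson 95% interval 69.8 to 77.2%), a microRNA for 82, a transcribed pseudogene for 32, a snoRNA for 15, and an snRNA or another small RNA for 12. Intervals on shares and medians cover counting over peaks or genes of this list only. Peaks are not replicates of a condition, and no test was run over them. The 536 peaks had 503 nearest genes: 33 genes had 2 peaks each, and no gene had more. A group of 19 peaks lay within 1 kb of the TSSs of several noncoding genes. Their share of a chromosome's peaks ran from 0.650% on chromosome 14 to 1.78% on chromosome 11, where 57 of them lay.

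Counted by gene, a noncoding gene had a promoter peak less often than a coding gene. Of 4029 noncoding genes with a TSS beyond 1 kb of every NM_ TSS, 518 had a peak of the set within 1 kb (12.9%, 11.9 to 13.9%), whereas 5753 of 20021 NM_ genes had a promoter peak (28.7%, 28.1 to 29.4%). Of the 913 noncoding genes whose every TSS lies within 1 kb of an NM_ TSS, 304 had a peak (33.3%, 30.3 to 36.4%), and 340 further peaks were left out of the set because a coding TSS was that close. Long noncoding RNA genes had a peak in 374 of 2449 cases (15.3%), transcribed pseudogenes in 32 of 362 (8.84%), microRNA genes in 83 of 1046 (7.93%) and snoRNA genes in 18 of 105 (17.1%). The genes that RefSeq classes as snRNA, which include 7SK and the U3 genes beside those of the spliceosome, had a peak in 8 of 15 cases (53.3%, 30.1 to 75.2%), although several of them are near-identical copies whose reads cannot be told apart with certainty. No peak of the set lay at the 33 rRNA genes, with an upper Wilson limit of 10.4%. Whether reads can be placed with certainty at these genes was not examined. Among the long noncoding RNAs, 9 of 23 genes named as host genes had a peak (39.1%, 22.2 to 59.2%), beside 18 of 116 named as antisense or opposite-strand transcripts (15.5%, with an upper Wilson limit of 23.2%).

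**Figure D1:**
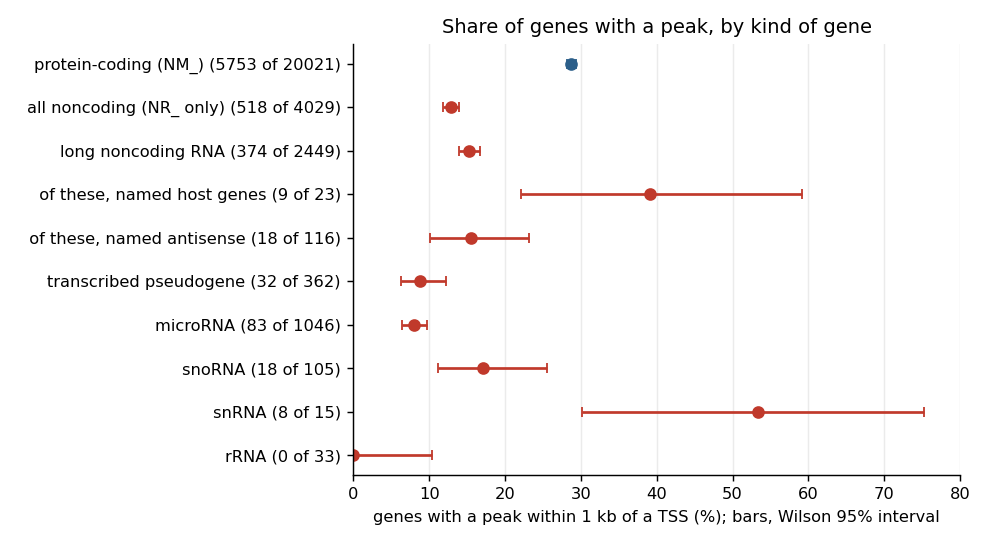
Share of genes with a peak within 1 kb of a TSS, in percent, by kind of gene (points; counts beside the names); bars are Wilson 95% intervals. Coding genes stand at 28.7%, all noncoding genes at 12.9% and microRNA genes at 7.93%, and the intervals of the host genes and snRNA genes are wide because they rest on 23 and 15 genes.

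The scores of the list run from 540 to 953. The lowest value is the scaled score of an irreproducible discovery rate (IDR) of 0.05, a measure of how well 2 replicates rank the same peak, and the scores were read on that scale, on which a higher score means a more reproducible peak. The sources used here do not state the scale for ATAC-seq. The noncoding promoter peaks had a median score of 718 (95% interval of the median 705 to 730, quartiles 635 and 792), between the 742 of coding promoter peaks (738 to 748) and the 690 of the remaining peaks (688 to 691). A score of at least 830, which stands for an IDR of 0.01, was reached by 66 of them (12.3%, beside 26.2% of coding promoter peaks and 4.71% of the remaining peaks), and a score of 900 or more by 12 (2.24%, beside 8.97% and 0.241%). Their median width was 630.5 bp (598 to 655), beside 758.5 bp (750 to 767) at coding promoters and 521 bp (519 to 524) elsewhere. A width over 1 kb was found for 58 of them (10.8%, beside 22.8% and 3.37%). Width and score were hardly related across the 536 peaks, with a Spearman correlation of 0.16 and a Pearson correlation of 0.00067. These peaks come from 1 list and share its depth.

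**Figure D2:**
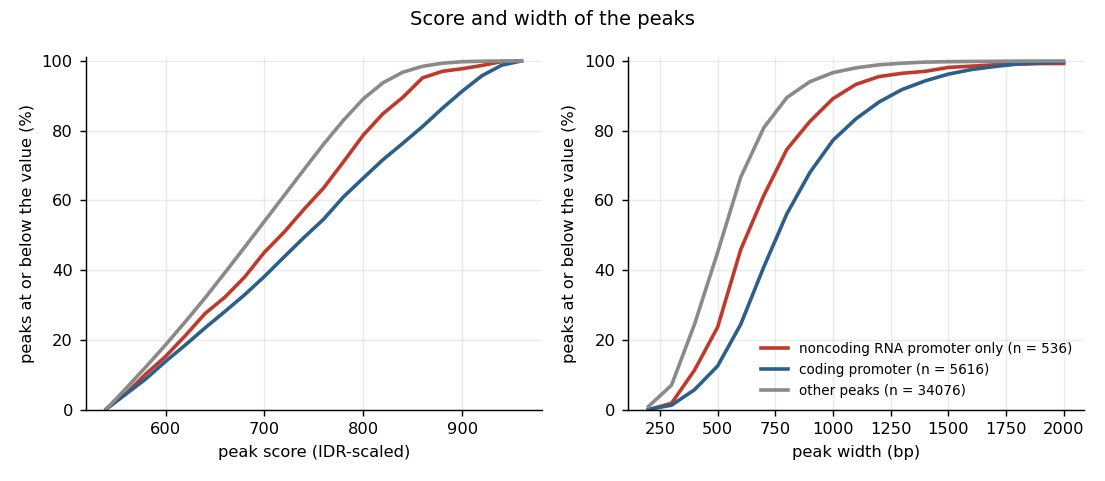
Cumulative share of peaks (percent) by peak score (left) and peak width in bp (right) for noncoding promoter peaks (red), coding promoter peaks (blue) and the remaining peaks (grey). The red line lies between the other lines over most of both ranges, with medians of 718 and 630.5 bp beside 742 and 758.5 bp for coding promoters.

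The highest score belonged to the Mir22hg peak, chr11:75461097-75461878, with 950 and a width of 782 bp. It covered the TSS, and the nearest NM_ TSS, of Tlcd2, lay 6172 bp away. After it came 5430416N02Rik with 935, Dancr (chr5:74092604-74093396) and Gm10505 with 934 each, Gnasas1 with 927, Crnde and Gm12915 with 926 each, AA465934 with 920, Gm34267 with 914 and Mir1191b with 913. Of these 10 peaks, 9 covered the TSS of a long noncoding RNA, and the exception lay 141 bp from the annotated start of the Mir1191b hairpin in an intron of Nfic. Gnasas1 is the antisense transcript of the imprinted Gnas locus, and its peak, chr2:174295185-174296023, lay in an intron of Gnas, 1836 bp from the nearest NM_ TSS. Crnde is transcribed away from Irx5, a homeobox gene whose NM_ TSS was 1164 bp from the peak, and a coding TSS of the GENCODE annotation was 993 bp away. At the other end, the score was 540 for 1700080N15Rik, 542 for Gm12111 and 543 for 4930545E07Rik, 9630013D21Rik, Gm805 and LOC115490409.

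The widest peak of the set, at 4930526I15Rik on chromosome 9, spanned 3421 bp with a score of 623, 169168 bp before the end of the chromosome. It was followed by 2700054A10Rik with 2462 bp and a score of 595, Snora73b with 2213 bp and 643, Snord65 with 2107 bp and 544, and Snord47 with 1860 bp and 649. The last 3 are snoRNAs, and none of their peaks covered the snoRNA start. The Snora73b, Snord65 and Snord47 peaks were centred 1812, 1464 and 1922 bp downstream of it, with a CpG ratio (defined with the base composition) of 0.13, 0.29 and 0.055. In 2700054A10Rik, 91% of the central 300 bp was repeat-masked sequence. The 15 snoRNA peaks had a median width of 714 bp and an upper quartile of 1451 bp, beside an upper quartile of 806 bp over the whole set.

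The noncoding promoter peaks were less tightly placed at the TSS than coding promoter peaks. Of the 536 peaks, 321 covered a TSS (59.9%, 55.7 to 64.0%), beside 4766 of 5616 coding promoter peaks (84.9%, 83.9 to 85.8%). The share was 65.8% for long noncoding RNAs, 68.8% for transcribed pseudogenes, 34.1% for microRNAs, 33.3% for snoRNAs and 50% for the remaining small RNAs. Where a TSS was covered, the peak centre had a median offset of -17 bp along transcription (quartiles -107 and 124), beside -2 bp (quartiles -87 and 91) at coding promoters. The covering peaks had a median score of 736 and width of 660 bp, and the 215 that did not cover a TSS had 687 and 587 bp. Coding promoter peaks showed the same kind of gap, with a median score of 757 where a TSS was covered and 688.5 where it was not. Another peak within 1 kb was found for 7.79% of the covering and 22.3% of the non-covering peaks, and for 26 of the 215 non-covering peaks the TSS was covered by a different peak of the list. The peak centre lay in an exon of the noncoding gene for 106 peaks, in an intron for 106 and outside the gene for 324.

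**Figure D3:**
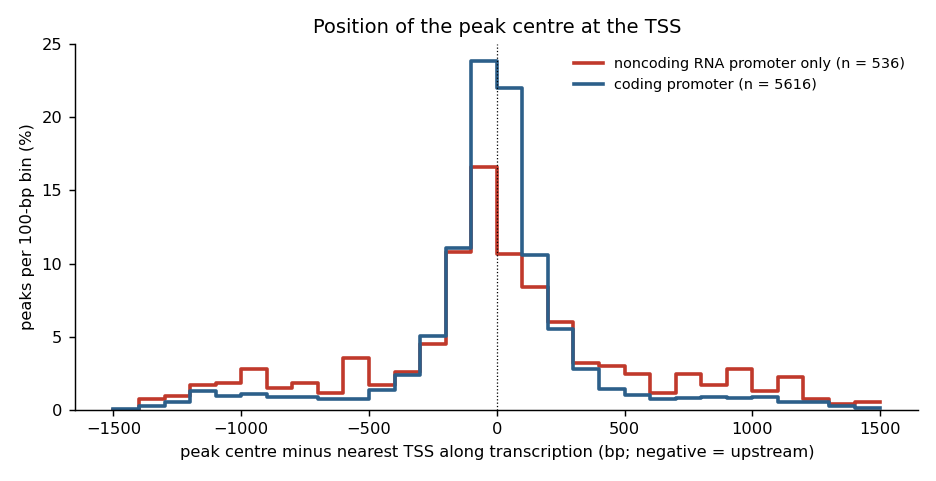
Distance of the peak centre from the nearest TSS along the direction of transcription, in bp (negative is upstream), as the percent of peaks per bin of 100 bp for noncoding (red) and coding (blue) promoter peaks. The bin just upstream of the TSS held 16.6% of noncoding and 23.8% of coding promoter peaks, and the red line is higher beyond 400 bp on either side in most bins.

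Base composition was computed over the central 300 bp of each peak. The CpG ratio is the number of CpG dinucleotides divided by the number that the C and G content would give by chance, and it is high in CpG islands, where most coding promoters of mammals lie. The noncoding promoter peaks had a median ratio of 0.33 (0.31 to 0.36), less than the 0.71 of coding promoter peaks (0.70 to 0.72) and more than the 0.22 of the remaining peaks. The GC content followed the same order, with 53.7%, 60.7% and 52.0%. Composition like that of an island, with a GC content of at least 50% and a ratio of at least 0.6, was found in 86 of the 536 peaks (16.0%, 13.2 to 19.4%), in 62.4% of coding promoter peaks and in 2.69% of the remaining peaks. Among the peaks that covered a TSS the share was 21.2% for noncoding and 69.8% for coding promoters. The highest ratios were 1.17 at Gm13421, 1.16 at Rab10os and 1.15 at 4930526I15Rik. At least 50% of the window was repeat-masked in 35 noncoding promoter peaks (6.53%), beside 1.09% of coding promoter peaks and 12.0% of the remaining peaks.

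**Figure D4:**
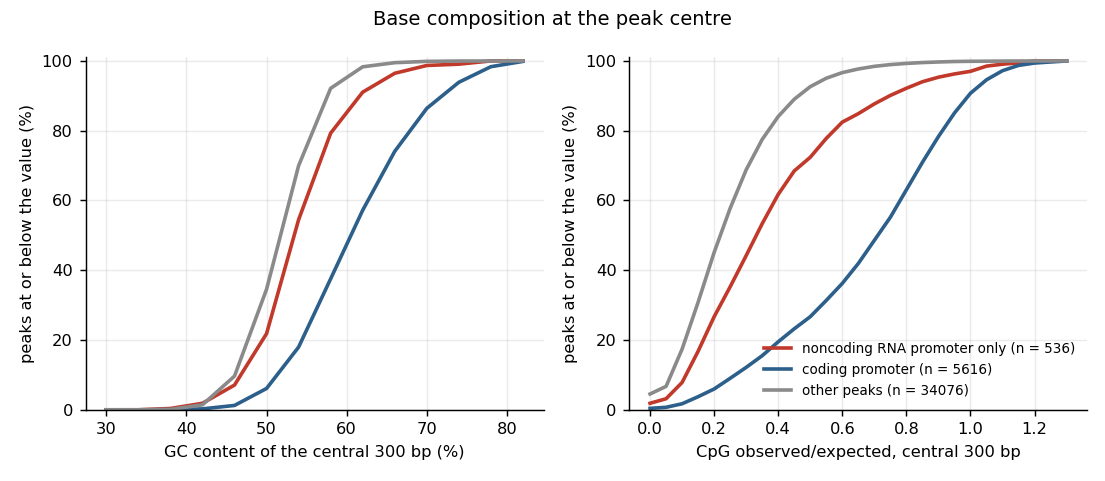
Cumulative share of peaks (percent) by GC content in percent (left) and CpG observed/expected ratio (right) of the central 300 bp, for noncoding promoter peaks (red), coding promoter peaks (blue) and the remaining peaks (grey). In the left panel the red line runs nearer to the grey one than to the blue one, and in the right panel it lies between them, with median ratios of 0.33 (red), 0.22 (grey) and 0.71 (blue).

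The motif GGGCGG, searched on both strands, was found in 164 of the 536 central windows (30.6%, 26.8 to 34.6%), beside 56.9% of coding promoter peaks, 16.3% of the remaining peaks and 22.2% of all autosomal peaks. Among peaks with a score of at least 830 it was found in 36 of 66 (54.5%, 42.6 to 66.0%), beside 66.6% of coding promoter peaks and 25.9% of the remaining peaks. CCAAT stood in 35.1% of them, beside 37.7%, 32.3% and 33.1%, so that this motif hardly differed between the groups. TATAAA stood in 8.40%, beside 4.33%, 9.21% and 8.52%. The longer motifs were rare: ATGCAAAT stood in 10 windows (1.87%, beside 2.84% of all autosomal peaks), the NRF1 motif CGCATGCG in 4 (0.746%, beside 0.577%) and the YY1 motif AAGATGGCG in 2 (0.373%, beside 0.758%). Among coding promoter peaks the NRF1 motif stood in 2.37% and the YY1 motif in 2.97%. No searched motif contains another.

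The RefSeq promoter sequences, which reach from 250 bases before to 50 after each start, gave a comparison that did not depend on where a peak was centred. Among 2054 of 2576 TSSs of long noncoding RNA genes with such a sequence, 319 had a peak within 1 kb. Their median CpG ratio was 0.35 (0.32 to 0.38) and that of the 1735 without a peak was 0.24 (0.22 to 0.25). Composition like that of an island was found in 17.9% of the promoters with a peak and 8.24% of those without, and 57 of 200 island-like promoters had a peak (28.5%, 22.7 to 35.1%), beside 262 of 1854 others (14.1%, 12.6 to 15.8%). The same comparison over 19336 TSSs of NM_ genes gave a peak at 35.7% of island-like promoters and 19.5% of others. GGGCGG stood in 31.0% of the long noncoding RNA promoters with a peak and 13.8% of those without, while CCAAT stood in 40.4% and 38.5%, and TATAAA in 9.40% and 14.4%. Most island-like promoters of either kind of gene therefore had no peak in this list.

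The nearest NM_ TSS was a median of 28751 bp from the peak, with quartiles of 10248 and 66512 bp, and at most 1154938 bp, for 1190028D05Rik. It lay within 5 kb for 71 peaks, of which 31 belonged to a noncoding gene arranged head to head with the coding gene, and beyond 100 kb for 84 peaks. The peak centre was inside an NM_ gene for 152 peaks (28.4%, 24.7 to 32.3%), 134 of them in an intron and 18 in an exon. The remaining peaks that are at no promoter were inside NM_ genes in 46.5% of cases. For the peaks of the set inside NM_ genes, the orientation is given by kind of noncoding gene. Of 79 such long noncoding RNA peaks, 3 (3.80%, 1.30 to 10.6%) belonged to a gene on the same strand as the coding gene, and of 55 such microRNA peaks 47 did (85.5%, 73.8 to 92.4%). Orientation was not computed for noncoding genes without a peak, so these counts describe the annotated genes and are not read as a trait of those with a peak. Antisense transcripts with a peak at the TSS inside their coding partner included Parvaos with a score of 861. Other annotations place a coding start nearer for some peaks: 52 (9.70%) lay within 1 kb of a coding TSS of GENCODE and 26 (4.85%) within 1 kb of a predicted coding (XM_) TSS, A330074K22Rik with a score of 902 being 1 of those that overlapped a GENCODE coding TSS. Another peak lay within 10 kb of 57.1% of the set, beside 51.8% of all autosomal peaks.

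The genes that host snoRNAs, whose introns are processed into snoRNAs, had peaks at CpG-rich promoters. Of 21 such genes on chromosomes 1 to 19, 8 had a peak of the set, 4 had a peak that was also within 1 kb of an NM_ TSS, and 9 had none. Over all long noncoding RNA genes with a TSS beyond 1 kb of every NM_ TSS, 15.3% had a peak of the set. The 21 genes were not limited in this way, and Zfas1 and Snhg18, for example, lay 81 and 151 bp from an NM_ TSS. The 8 peaks had a median score of 799, beside 718 for the set, and all 8 covered the TSS. The scores were 934 at Dancr, 853 at Snhg16, 808 at Snhg4 and Snhg6, 790 at Snhg12, 778 at Snhg3, 669 at Snhg5 and 633 at Snhg17. Their CpG ratios ran from 0.62 at Snhg4 to 1.12 at Snhg5, with a median of 0.81 beside 0.33 for the set. Gas5, Snhg1, Snhg9 and Snhg10 shared the peak with an NM_ promoter, with scores of 737, 626, 725 and 947. The Snhg3 and Snhg4 peaks of the set overlapped a coding TSS of GENCODE, so they are noncoding-only by NM_ TSSs alone. Snhg7, Snhg8, Snhg15 and Zfas1 were among those with no peak.

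Among the listed structural and RNA polymerase III transcripts, the peaks of the set were CpG-rich too. Of 16 genes, 6 had a peak of the set, 3 a shared one and 7 none. The share with a peak of the set was 12.9% over all noncoding genes and 53.3% over the 15 snRNA genes. Both shares cover genes with a TSS beyond 1 kb of every NM_ TSS. The 16 genes were not limited in this way, and Rn7s1, Rnu7 and Rnu12 lay 109, 217 and 267 bp from an NM_ TSS. The scores were 848 at Rn7s2 (7SL, the RNA of the signal recognition particle), 790 at Rnu1a1 (a U1 snRNA), 789 at Rn7sk, 771 at Vaultrc5 (a vault RNA), 732 at Rnu11 (the U11 snRNA of the minor spliceosome) and 715 at Rny1 (a Y RNA). All 6 covered the TSS. Their CpG ratios ran from 0.75 to 1.10 while their GC content had a median of 47.2%, beside 53.7% for the set. The GC content was 44.3 to 48.0% at Rnu11, Rn7sk, Rny1 and Rnu1a1, but 56.0% at Rn7s2 and 56.3% at Vaultrc5. Rmrp, Rpph1 and Rnu3a (RNase MRP, RNase P and U3) had shared peaks with scores of 621, 829 and 769. Terc, the RNA of telomerase, Rny3 and Rn7s1 had none. The U3 genes Rnu3b1, Rnu3b2, Rnu3b3 and Rnu3b4, which lie inside Tex14 on chromosome 11 with Rnu1a1, each had a peak 3 to 72 bp from the gene's start, with scores of 835, 802, 831 and 768, and Rnu3b2 had a second peak of 591. The CpG ratios of the first 4 peaks were 0.25, 0.39, 0.33 and 0.17, below those of the listed genes, and of all 12 peaks at snRNAs and other small RNAs 2 had a composition like that of an island. Because these genes are near-identical copies, reads could have been placed at the wrong copy.

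Of 16 genes for transcripts associated with pluripotency, 8 had a peak of the set and 8 none, and no shared peak was found. The share with a peak of the set was 15.3% over all long noncoding RNA genes with a TSS beyond 1 kb of every NM_ TSS. The 16 genes were not limited in this way, and Platr20 lay 153 bp from an NM_ TSS. A further 12 names of this list matched no RefSeq gene and 7 had no NR_ transcript on chromosomes 1 to 19, and they were left out of the counts, as were a few names of other lists. The 8 genes had 11 peaks with a median score of 773, and 7 of the 11 covered a TSS. Platr26 reached 853 (chr2:71718984-71719883), Lncenc1 849 and 711, Platr22 848 and 793, Platr9 827, Platr4 773 and 582, Platr3 721, Platr8 605 and Platr27 564. Lncenc1 is an abundant noncoding transcript of naive mESCs, and its peak of 849 was centred 1101 bp downstream of a TSS while that of 711 covered another TSS. The CpG ratio of the 11 peaks was between 0 and 0.56, with a median of 0.36, near the 0.33 of the set. A median of 25.3% of their central window was repeat-masked, beside 7.33% for the set, and the highest share was 73% at Platr3. Platr7 just missed the set, since its peak with a score of 858 lay 1011 bp from the TSS. Tunar and Oip5os1 had no peak within 1 kb.

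**Figure D5:**
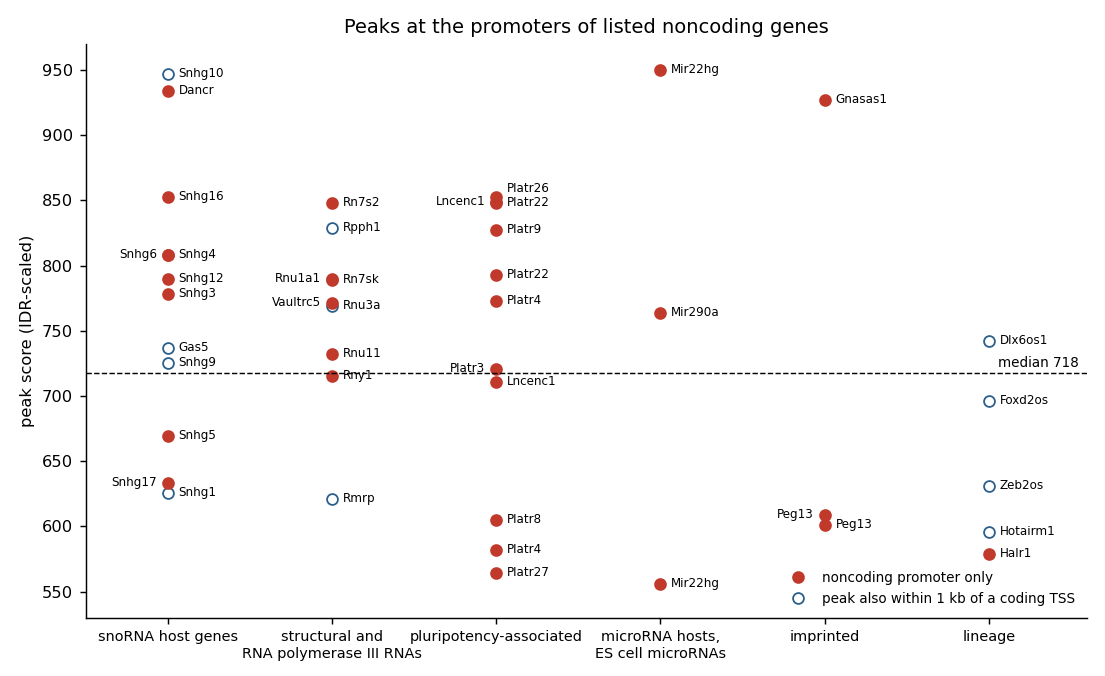
Scores of peaks at listed noncoding genes, by list; filled points are peaks at noncoding promoters only, open points are peaks that are also within 1 kb of an NM_ TSS, and the dashed line is the median of 718 of all noncoding promoter peaks. Of the 8 snoRNA host genes with filled points 6 lie above the line, and widely transcribed genes such as Malat1 are missing because none had a peak.

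Of 16 listed microRNA genes and microRNA hosts, 2 had a peak of the set, about the share of 12.9% over all noncoding genes. These were Mir22hg, with 950 at the TSS and 556 for a peak centred 951 bp upstream, and Mir290a. The miR-290 cluster peak, chr7:3217546-3217881, had a score of 764 and a width of 336 bp and ended 745 bp upstream of the Mir290a hairpin, in reach of Mir290b and D7Ertd143e as well. Mir291a, Mir294 and Mir295 of the same cluster lay farther away and had no peak within 1 kb. Mir302a, Mir302b, Mir302c, Mir302d and Mir367, a cluster of related microRNAs, had none. Mir17hg had no peak within 1 kb of its annotated TSS, but a peak with a score of 798 ended 1690 bp upstream of it. This peak entered the set because it ended 971 bp upstream of the Mir17 hairpin. The annotated Mir17hg TSS thus lies downstream of the start of that hairpin. Mir17hg was counted by this TSS, so its lack of a peak does not describe the place where the transcript holding Mir17 begins. A separate peak of the set with a score of 729 lay 431 bp upstream of the Mir22 hairpin, which starts 2177 bp downstream of the Mir22hg TSS.

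Over all kinds of host, 82 peaks of 78 microRNA genes were in the set, and 70 of these genes were matched to mature sequences of RefSeq. The highest scores were Mir1191b with 913, Mir3063 (in Igf2bp1) with 886, Mir7220 with 878, Mir6921 (in Srebf1) with 865, Mir92b with 852 and 786, and Mir1983 with 850. Some mature sequences are printed with the seed, bases 2 to 8 that pair with target RNAs, in capitals. They are an arm of miR-22, both arms of the Mir290a and Mir290b pair, the arms of Mir92b and Mir32 that share a seed, and an arm of Mir1191b, the microRNA gene with the highest score.
miR-22-3p: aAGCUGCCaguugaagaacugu
miR-290a-5p: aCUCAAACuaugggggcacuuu
miR-290a-3p: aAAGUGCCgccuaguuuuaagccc
miR-290b-5p: gCUUAAAAcuaggcggcacuuu
miR-290b-3p: aAGUGCCCccauaguuugagua
miR-92b-3p: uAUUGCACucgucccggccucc
miR-32-5p: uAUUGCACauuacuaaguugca
miR-1191b-3p: aGACUCACuauguagcccaagc

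Over the 111 mature sequences of the matched genes outside chromosome 18 there were 110 seeds, and the only seed held by more than 1 gene was AUUGCAC, of Mir92b and Mir32. The Mir92b peak with a score of 852 covered the annotated start of its hairpin, whereas the Mir32 peak, with a score of 767, lay 697 bp from it. Mir290a and Mir290b are read from opposite strands of 1 locus, and their seeds differed. Members of the imprinted Dlk1-Dio3 cluster, Mir432, Mir136, Mir3071 and Mir434, lay within 1 kb of a single peak with a score of 735, while Mirlet7g had a peak with a score of 547.

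The remaining lists are short, and their counts stand beside a share of 12.9% over all noncoding genes and 15.3% over long noncoding RNA genes. Those shares cover genes with a TSS beyond 1 kb of every NM_ TSS, whereas the lists were not limited in this way. Haglr, Emx2os, Wt1os and Tug1, for example, lay 84, 55, 19 and 623 bp from an NM_ TSS. Peaks at such genes can be left out of the set by the rule, so counts and shares are not like for like. At imprinted loci, 2 of 10 listed genes had a peak of the set. Gnasas1 had the score of 927 given above. Peg13, a paternally expressed transcript, had a peak of 609 over its TSS and a second peak of 601 centred 963 bp downstream, and the nearest NM_ TSS was 244969 and 246226 bp away. H19, Meg3, Kcnq1ot1, Airn, Rian, Mirg, Snhg14 and Nctc1 had no peak within 1 kb. None of 7 widely transcribed genes (Malat1, Neat1, Tug1, Pvt1, Miat, Lncpint and Dleu2) had a peak within 1 kb of a TSS. At Malat1, a nuclear long noncoding RNA, the peak of the set with a score of 667 was at Mascrna, the small RNA cut from its 3′ end: it ended 85 bp beyond the 3′ end of Malat1 and 7067 bp from the Malat1 TSS. Of 25 lineage genes, active in particular embryonic tissues, 1 had a peak of the set, Halr1 with a score of 579, and Hotairm1, Dlx6os1, Foxd2os and Zeb2os had shared peaks. The 20 without a peak included Hotair, Fendrr, Bvht and Sox2ot.

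The loops that the study classed by their response to ZBTB21 depletion were also set against the peaks. Of the 536 peaks, 119 (22.2%, 18.9 to 25.9%) overlapped the span of a responsive loop, beside 19.7% of all autosomal peaks, and 3 (0.560%) overlapped a less-responsive loop, beside 2.48%. With a score of at least 830, 24 of 66 (36.4%, 25.8 to 48.4%) overlapped a responsive loop, beside 20.3% of all autosomal peaks with such a score. The 3 peaks in less-responsive loops were at C330004P14Rik, 1700030C10Rik and AA387883. The classes are the study's own and were built from signals at ATAC-seq peaks, so the overlap is a description.

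Just inside the limit of 1 kb to a noncoding TSS were B230311B06Rik at 996 bp with a score of 884 and 1700080N15Rik and Snord47 at 993 bp, and just outside it Platr7 at 1011 bp, Mir6358 at 1016 bp and Gm29679 at 1019 bp. On the coding side, Mir5135 at 1077 bp, Gm11520 at 1091 bp and Gm12592 at 1130 bp from an NM_ TSS were just inside the set, and Gm13986 at 997 bp, Gm13822 at 989 bp and A030001D20Rik at 978 bp were just outside it.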

How the data were processed

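ATAC-seq libraries were made from 50000 cells with a transposase kit and sized for mono- and dinucleosomes. The submitters' processing notes name cutadapt 2.6, Bowtie2 2.3.5.1, MACS2 2.1.1 and the builds mm10 and hg19. The transposase shift and the steps that turned the replicates into 1 list are not given in the sources used here. The deposited score of each peak was made by the authors. Its lowest value equals the scaled IDR score of 0.05, from which its scale was inferred.

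Distances run from the nearest base of a peak to the TSSs of RefSeq GRCm38.p6, whose chromosome lengths match mm10. Medians carry order-statistic intervals and shares Wilson intervals (95%). Python 3.11.15, pandas 2.3.3 and scipy 1.17.1 were used. On simulated peaks the rule matched a direct count in 20 of 20 runs. Genes were named from lists fixed with the design, plus the highest-scoring, lowest-scoring and widest peaks and those next to a limit. The members and lists were chosen with earlier results of these data known. Genes or peaks named outside these rules were chosen after their values were seen: these are peaks of microRNA, snoRNA and U3 genes, Parvaos, A330074K22Rik, the highest CpG ratios, the most distant peak and those in less-responsive loops. The alternatives were other distances, a stricter score, merged peaks, no small RNA genes, other windows and, added later, GENCODE coding TSSs.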

Additional observations from a re-analysis of the deposited data

How the results depend on the processing

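No paired analysis was possible because both replicates stand in a single list with no value per replicate, and for the same reason no replicate could be left out. Over 12 alternatives, 35 of 49 recomputed values stayed within the interval of the value given above (or, for the number of peaks, within 1.5 times of it), and 14 did not. The number of peaks stayed within that range under each other distance rule, with all chromosomes, with merged peaks and without small RNA genes. The range is wide, and the number depended on the distance chosen: it was 426 with a limit of 500 bp to a noncoding TSS and 756 with 2 kb. With a score of at least 830 only, 66 peaks were left, 1.74% of the noncoding genes had a peak, the median width was 719.5 bp, the median score 852.5, the share covering a TSS 71.2%, the median GC content 56.7%, the median CpG ratio 0.41, the share with GGGCGG 54.5% and the share in responsive loops 36.4%. This alternative keeps the highest scores by construction, and the other causes were not tested. Without small RNA genes, 14.4% of the noncoding genes had a peak, 92.6% of the peaks were at long noncoding RNAs, 66.0% covered a TSS and 20.2% lay inside NM_ genes, which follows from the genes left out. Over whole peaks the median GC content was 52.7%. Leaving out peaks within 1 kb of a GENCODE coding TSS, an alternative chosen after seeing the data, moved none of the values by more than that. The comparison groups at a score of at least 830 were also added after seeing the data. Composition and motifs were not recomputed for merged peaks.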
